A study of Mus musculus with 4 samples.

Results

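Otos, Otor, Coch, Ceacam16, Epyc and Vmo1 encode secreted proteins of the inner ear's extracellular matrix and fluids. They were read by symbol in 4 libraries of the adult mouse stria vascularis (SV), where each of the 6 was listed under the same identifier among 27998 genes in the cells and 48816 genes in the nuclei. The libraries were 3 captures of whole cells (single-cell RNA-Seq, scRNA-Seq) and 1 capture of nuclei (single-nucleus RNA-Seq, snRNA-Seq) on the 10x Genomics Chromium system, all from SV of wild-type CBA/J mice at postnatal day 30. Each suspension pooled animals, about 12 for cells and about 10 for nuclei by the labels, although the study's methods give other numbers for the cells. The SV was peeled from the spiral ligament by hand, so that tissue next to it can be present, and cells were released with trypsin. No treatment or genotype was compared, so the comparisons are between barcodes, cell types and captures. By the study's methods each capture of cells had its own pool of mice, so p-values measure the spread between these pools as captured, part of which may be technical.

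The SV is the layered epithelium on the cochlear lateral wall that secretes potassium into the endolymph and keeps up the endocochlear potential. It consists of marginal, intermediate and basal cells, with spindle and root cells at its edges, and it lies against the fibrocytes of the spiral ligament, while Reissner's membrane and the organ of Corti border the same duct. Otos (otospiralin) and Coch (cochlin) are known as products of fibrocytes of the ligament and limbus, and Coch is a deafness gene. Ceacam16 is a component of the tectorial membrane, the acellular sheet over the hair cells, and is also a deafness gene. Epyc (epiphycan) is a small leucine-rich proteoglycan of cartilage that is also made by supporting cells. Vmo1 (vitelline membrane outer layer protein 1) is a homologue of an egg-coat protein. Otor (otoraplin) belongs to the MIA family of small secreted proteins and is known from the cochlea.

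In GRCm38 the 6 genes lay on 6 chromosomes, so none was a neighbour of another. Otos (ENSMUSG00000044055) occupied chr1:92644218-92648841 on the minus strand with 4 exons in its longest transcript. Coch (ENSMUSG00000020953) occupied chr12:51593341-51605771 on the plus strand with 11 exons. Neither overlapped another annotated gene, and the same held for Otor (ENSMUSG00000027416, chr2:143078473-143081713, plus strand, 4 exons) and for Vmo1 (ENSMUSG00000020830, chr11:70513516-70514616, minus strand, 3 exons). Ceacam16 (ENSMUSG00000014686, chr7:19852097-19861299, minus strand, 6 exons) shared 6254 bases with Gm19345 on the plus strand, and Epyc (ENSMUSG00000019936, chr10:97644068-97682454, plus strand, 7 exons) shared 1041 bases with the non-coding gene Gm10754 on the minus strand. Gm10754 had 0 UMIs in the clusters described here, and Gm19345 had 2 UMIs in the nuclei with the most Ceacam16 and 0 in the cells. Reads of each pair can be assigned apart only if the counting used the strand, which the sources used here do not give.

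RefSeq promoter windows (GRCm38.p6, 300 bases, from 250 before to 50 after the start) were matched for 5 of the 6 genes. The windows of Otos (chr1:92648792-92649091, minus strand) and Coch (chr12:51593091-51593390, plus strand) are shown because RNA of these 2 genes was found together in single barcodes. They are printed 5' to 3' with CG dinucleotides in capitals.
Otos: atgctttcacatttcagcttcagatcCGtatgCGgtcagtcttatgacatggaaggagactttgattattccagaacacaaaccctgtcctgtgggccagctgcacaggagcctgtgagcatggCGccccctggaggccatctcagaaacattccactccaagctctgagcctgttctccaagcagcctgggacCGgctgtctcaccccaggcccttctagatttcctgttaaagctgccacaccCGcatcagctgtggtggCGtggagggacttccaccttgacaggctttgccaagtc
Coch: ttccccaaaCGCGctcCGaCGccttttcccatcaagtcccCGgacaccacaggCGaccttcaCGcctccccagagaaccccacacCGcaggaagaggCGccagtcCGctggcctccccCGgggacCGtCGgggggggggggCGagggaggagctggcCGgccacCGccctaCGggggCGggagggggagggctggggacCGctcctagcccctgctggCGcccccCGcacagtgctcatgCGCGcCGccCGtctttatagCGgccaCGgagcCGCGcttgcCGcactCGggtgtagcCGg
The Coch window was 73.7% GC with 32 CG dinucleotides, more than in 90.5% of 32851 promoters. The Otos window was 55.0% GC with 6, more than in 43.6%, against a median of 52.7% GC and 7. The letters TATAAA, searched on both strands, were present in the windows of Otor (35 bases before the start), Vmo1 (27 bases before) and, on the other strand, Coch, and in 13.6% of all promoters. These are descriptions of the letters in the windows and were not tied to the measured levels.

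Depth ranged from 2811309 to 8340882 UMIs in the captures of cells and was 22332501 UMIs in the nuclei. After barcodes with fewer than 200 genes and called doublets were removed, 377, 1314 and 1461 cells and 9735 nuclei remained, with median depths of 5050, 4910, 3857 and 1497 UMIs. Mitochondrial genes held 38.7% to 45.4% of UMIs in cells and 7.97% in nuclei. Libraries shared between 0 and 32 barcode sequences with each other. Clusters were named only where fixed markers allowed it, which left 1980 of 3152 cells and 3714 of 9735 nuclei unnamed. The unnamed clusters that matter here are called by their leading genes. Levels are UMIs of a gene for every 1000000 UMIs of the summed barcodes (CPM), with exact Poisson 95% intervals that cover counting error only. Cells and nuclei were counted against different gene lists, so their CPM are set side by side and not tested.

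The 6 genes differed widely in how much RNA was recovered and in how it was spread over captures. Otos had 65, 1695 and 1344 UMIs in captures 1 to 3 of the cells and 3270 in the nuclei. Epyc had 321, 222 and 62 in the cells and 680 in the nuclei. It was thus most abundant in the capture where Otos was least, but 1 cell held 278 of the 321 UMIs there. Coch had 17, 288 and 132 UMIs in the cells and 679 in the nuclei, in the same order of captures as Otos. Ceacam16 had 28, 47 and 31 in the cells and 951 in the nuclei. Vmo1 (2, 14, 29 and 224) and Otor (1, 8, 8 and 23) were sparse in every library, so the place of Otor rests on very few counts.

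Few barcodes carried most of this RNA. In captures 2 and 3, cells with 5 or more UMIs of Otos held 90.3% and 85.6% of all Otos UMIs, and the 2 richest cells alone held at least 50% of them. These were 5 of 1314 cells, 0.381% (Clopper-Pearson 95% interval 0.124 to 0.886), and 5 of 1461 cells, 0.342% (0.111 to 0.797). Capture 1 had 1 such cell with 6 UMIs among 377, 0.265% (0.00672 to 1.47), an interval that includes the shares of the other captures. In the nuclei 50 of 9735 barcodes, 0.514% (0.381 to 0.677), reached 5 UMIs. Epyc was as concentrated, with 97.2%, 91.9% and 80.7% of its UMIs in 2, 6 and 4 cells with 5 or more UMIs. At the other end, no cell reached 5 UMIs of Otor, and for 0 of 1461 cells in capture 3 the upper bound of the interval is 0.252%.

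Otos was highest in a cluster of 53 cells led by Gm525, Slc4a11, Ppp1r1a, Apod, Trf and Car3. That cluster held 2688 of 3091 kept UMIs (87.0%), at 13.8, 6065 and 10080 CPM in captures 1 to 3 (5386 ± 5067, SD, n = 3). Captures 2 and 3 were high and capture 1, with 7 cells and 2 UMIs there, was not. Coch followed with 343 of 432 kept UMIs (79.4%) in the same cluster, at 27.5, 953 and 853 CPM (611 ± 508, SD, n = 3), again with capture 1 low.

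The high level came from 9 of the 53 cells, called Otos-rich here. They carried 608, 447, 223, 220 and 33 Otos UMIs in capture 2 and 559, 272, 230 and 82 in capture 3, which was 0.855% to 7.14% of all UMIs in each cell. In the same order they carried 147, 57, 9, 12 and 0 UMIs of Coch in capture 2 and 11, 41, 40 and 5 in capture 3. Both genes were thus high in 8 of these 9 cells, whereas over all kept cells 8 of 11 with at least 5 Otos UMIs had at least 5 of Coch, and 8 of 10 with at least 5 Coch UMIs had at least 5 of Otos. The other 2 cells with 5 or more Otos UMIs had 7 and 6 and lay in other clusters.

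Within this cluster the Otos-rich cells stood apart from the remaining 44 in genes that the choice by Otos did not use, although they were clustered with them on such genes. Cldn11, the tight junction protein of basal cells, had 0 UMIs in the 9 cells and 2984 CPM in the other 44, of which 43 had it. Dcn, the matrix proteoglycan decorin, was found in 9 of 9 cells at 1340 CPM and in 1 of 44 at 2.20 CPM. Car3, a carbonic anhydrase and fibrocyte marker, stood at 1357 CPM in 8 of 9 cells and at 50.7 CPM in 13 of 44. Tjp1, another basal marker, went with Cldn11, at 33.9 CPM in 2 of 9 cells and 211 CPM in 30 of 44. The basal marker Igfbp2 went the other way, at 424 CPM in 9 of 9 cells and 15.4 CPM in 6 of 44. The cluster therefore held cells with and without Cldn11, but its basal markers did not all split alike. Over the whole cluster 7 of 7 basal and 4 of 11 fibrocyte markers were raised and the fibrocyte markers Emilin2 and Kcnk2 were at 0. It was given no cell type name, since Car3 and no basal marker stood among its 10 leading genes. Slc4a11, a membrane transporter, had 1984 CPM in the 9 cells against 2.20 in the 44, its relative Slc4a10 had 424 against 0, and Gm525 had 5970 against 6.61. Apod, an apolipoprotein, was less exclusive, at 13670 CPM against 3240. Median depth was 6204 UMIs in the 9 cells and 8808 in the 44, so depth was not higher where Otos was.

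In nuclei both genes were again highest in one cluster. A cluster of 28 nuclei led by Gm525, Car3, Ppp1r1a, Slc4a11 and Gng11 had Otos at 29540 CPM (28140 to 30990), with a UMI in 22 nuclei and 5 or more in 19, and it held 55.9% of the kept Otos UMIs. Coch stood there at 3202 CPM (2754 to 3703), in 20 of 28 nuclei. In this cluster 6 of 11 fibrocyte and 4 of 7 basal markers were raised, Car3 was at 3976 CPM and Emilin2 at 0, so it too was left unnamed. Its 19 Otos-rich nuclei had Dcn at 969 CPM and Slc4a11 at 1239, and the other 9, with a median of 1144 UMIs against 2244, had both at 241. Cldn11 stood at 135 CPM (6 UMIs), in 4 of the 19, and at 401 CPM (5 UMIs), in 2 of the 9. It was lower in the Otos-rich nuclei but not absent, and these counts are too few to show or refute the split seen in cells. Car3 and Apod were present in both sets, at 4214 and 13070 CPM in the 19 and at 3130 and 9710 in the 9. Malat1, a nuclear RNA, made up 0.61% of UMIs in these 28 nuclei and mitochondrial genes 14.4% (medians over nuclei), against 6.51% to 14.4% and 1.23% to 5.91% in the clusters of nuclei that held the most UMIs of each of the other 4 genes. Erythroid markers summed to 65360 CPM in them, 113300 CPM in the remaining nuclei and 3507 CPM in the second cluster described next, and the part of these differences in the levels was not tested. A second cluster of 32 nuclei, led by Slc4a11, Slc4a10, Cemip and Tnfrsf11b, had less Otos, 3085 CPM (2604 to 3627), and Coch at 2514 CPM (2083 to 3008), an interval that overlaps that of the first cluster, in 17 and 23 of its nuclei.

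The balance of Otos to Coch therefore differed between the 2 clusters of nuclei. It was 9.23 Otos UMIs for each of Coch in the Gm525/Slc4a11 nuclei and 1.23 in the Slc4a11/Slc4a10 nuclei. As a share of both genes' UMIs, Otos made up 90.2% (88.8 to 91.5) in the first and 55.1% (48.9 to 61.2) in the second, and 88.7% (87.5 to 89.8) in the Gm525/Slc4a11 cells. These intervals treat UMIs as independent, and few nuclei lie behind them. The second cluster met the basal rule, with 6 of 7 basal and 4 of 11 fibrocyte markers raised, and it set the level of the basal nuclei as a whole: Otos stood at 309 CPM (276 to 346) with it and 168 CPM (143 to 197) without it, and Coch at 163 CPM and 43.1 CPM. The Coch value of basal nuclei thus rested mainly on these 32 of 561. Of the 156 Otos UMIs in the other 529 basal nuclei, 1 nucleus held 71, and the level without it was not computed.

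Otos and Coch were not always together in nuclei. Of 50 nuclei with 5 or more Otos UMIs, 35 had Coch and 17 had at least 5 of it, and of 26 nuclei with 5 or more Coch UMIs, 19 had Otos. None of these 50 nuclei had a UMI of Epyc or Vmo1, 1 had Ceacam16 and 4 had Otor. Among all 11057 deposited nuclei 319 had Coch, 195 Epyc, 167 Vmo1, 236 Ceacam16 and 17 Otor. With Epyc, Vmo1 and Ceacam16 so rare in all nuclei, their low counts among the 50 are not read as exclusion. The plot of Otos against Coch per barcode shows the richest cells along a shared rise and a set of nuclei with Coch and little Otos.

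**Figure D1:**
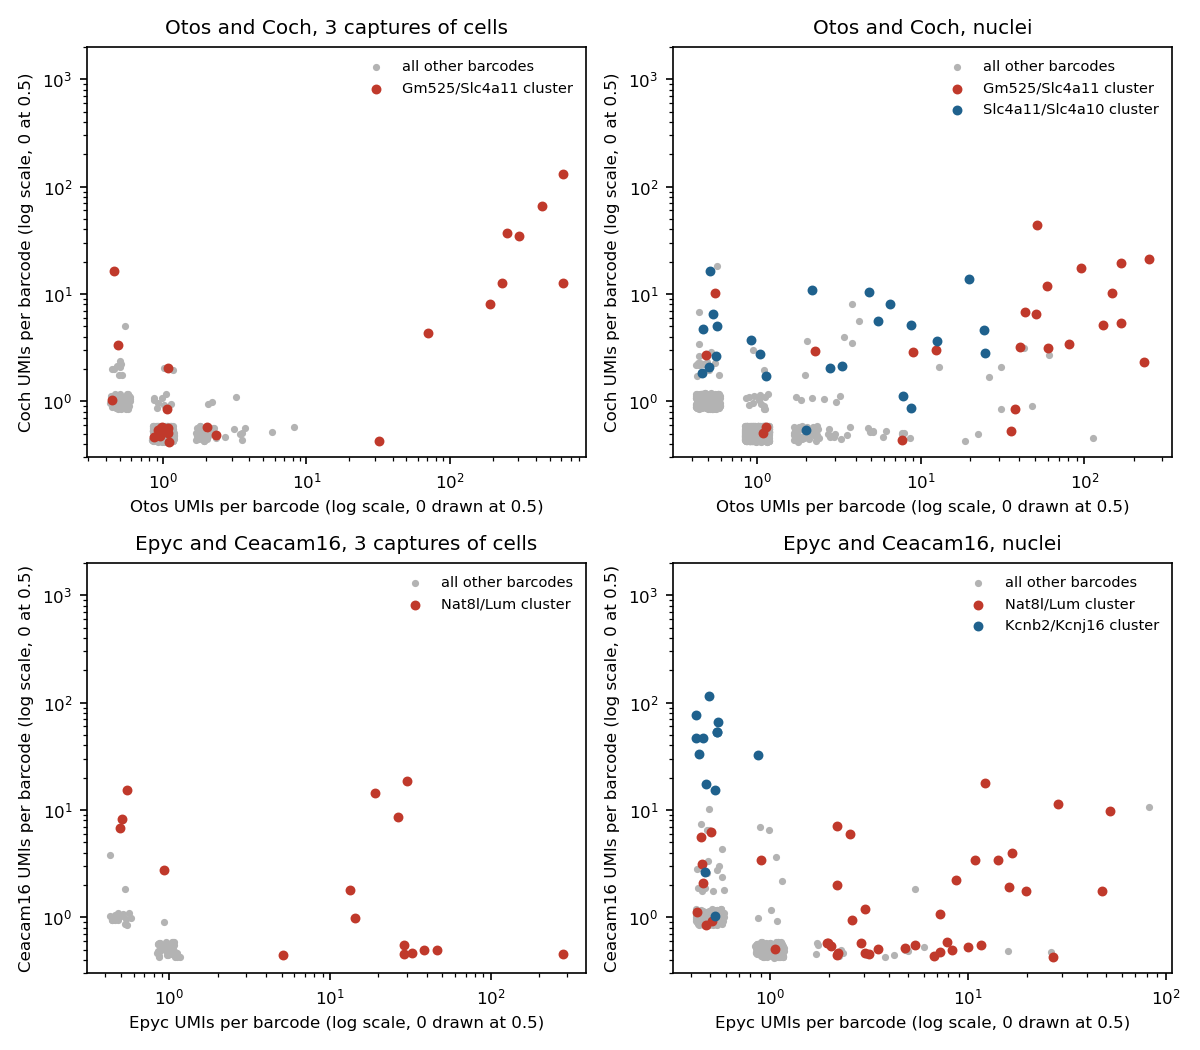
UMIs per barcode of Otos (x axis) against Coch (y axis) in the top panels and of Epyc (x axis) against Ceacam16 (y axis) in the bottom panels, for the 3 captures of cells (left) and the nuclei (right). Each point is 1 kept barcode with a UMI of either gene, axes are logarithmic with 0 drawn at 0.5 and points are jittered slightly. In cells 8 points are at 5 or more UMIs of both Otos and Coch, whereas the 13 Kcnb2/Kcnj16 nuclei have Ceacam16 with 1 UMI of Epyc between them.

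Epyc and Ceacam16 were highest in another cluster, 16 cells led by Gpx2, Lum, Fxyd6, Nat8l and Fbxo2, with 2, 9 and 5 cells from the 3 captures. Lum, another matrix proteoglycan, marked it together with Nat8l, the enzyme that makes N-acetylaspartate. It held 567 of 604 kept Epyc UMIs (93.9%), at 8487, 3603 and 2295 CPM (4795 ± 3264, SD, n = 3), and 85 of 106 kept Ceacam16 UMIs (80.2%), at 571, 724 and 1035 CPM (777 ± 236, SD, n = 3). Both genes were high there in each capture, in contrast to Otos. The cluster raised 5 of 6 spindle/root markers, yet its 10 leading genes held Lum, a fibrocyte marker, and none of these, so it was left unnamed. It also raised Sox2, 1 of 5 markers of organ of Corti supporting cells, and 2 of those 5 were at 0.

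Single cells of this cluster had either gene or both. Epyc had a UMI in 13 of the 16 cells and Ceacam16 in 9, with both in 6. The 12 cells with 5 or more Epyc UMIs had 278 and 34 in capture 1, 46, 35, 35, 32, 29 and 27 in capture 2, and 18, 14, 13 and 5 in capture 3. The 6 cells with 5 or more Ceacam16 UMIs had 21 in capture 1, 18, 9, 7 and 7 in capture 2 and 17 in capture 3. The overlap was 3 cells, which is 25.0% of the first set and 50.0% of the second. Slc26a4, the anion exchanger pendrin that marks spindle and root cells, differed between them: it had 62 UMIs in 6 of the 10 cells with little Ceacam16 (765 CPM) and 0 UMIs in the 6 with 5 or more. Kcnj16, a potassium channel subunit of root cells, had 925 CPM in the Ceacam16-rich cells and 346 CPM in the other 10, and Lum had 318 and 1691 CPM. With 6 and 10 cells chosen by their Ceacam16 these are values only, and no test was made. The Prss36 nuclei described below were split in the same way, into 7 and 38, also without a test. Kcnj16 was again higher with Ceacam16, at 1576 CPM against 534. Lum went the other way from the cells, at 2101 CPM against 507, and Slc26a4 had 0 and 2 UMIs.

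The nuclei separated the 2 genes further. A cluster of 13 nuclei, led by Kcnb2, Kcnj16, Otogl, Acsl3 and Otog and named spindle/root by P2rx2, Kcnj16 and Cldn14, held 543 of 879 kept Ceacam16 UMIs (61.8%) at 24010 CPM (22040 to 26120), with a UMI in 13 of 13 nuclei. Epyc had 1 UMI in it, 44.2 CPM (1.12 to 246). Otogl and Otog, which encode otogelin-like and otogelin, also proteins of the inner ear's acellular membranes, stood at 1061 CPM in 11 of the 13 nuclei and at 663 CPM. Fgfr3, a marker of organ of Corti supporting cells, was raised too, and 3 of the 5 markers of that class were at 0, so the spindle/root name rests on 3 of 6 markers.

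In a cluster of 45 nuclei led by Prss36, Srgap1, Rgs6, Tdrd12, Nat8l and Lum, the order was the other way round. Epyc stood at 3889 CPM (3496 to 4313), in 36 of 45 nuclei, and held 55.3% of its kept UMIs, while Ceacam16 stood at 1065 CPM (864 to 1297), in 24 of 45. Epyc made up 78.5% (74.5 to 82.2) of the UMIs of both genes here, 87.0% (84.1 to 89.5) in the Nat8l/Lum cells and 0.184% (0.00465 to 1.02) in the Kcnb2/Kcnj16 nuclei. Among all kept nuclei, 13 of 28 with 5 or more Epyc UMIs had Ceacam16 and 9 of 25 with 5 or more Ceacam16 UMIs had Epyc. Spindle/root nuclei as a whole had Ceacam16 at 2448 CPM (2250 to 2659), but at 96.5 CPM (58.9 to 149) without the 13 Kcnb2/Kcnj16 nuclei, so 13 of 143 nuclei decided the value. Epyc in the same type was 148 CPM (102 to 207) with them and 159 CPM (110 to 224) without.

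Vmo1 was highest in nuclei of Reissner's membrane, the thin partition between the scala media and scala vestibuli, which were named from the markers Otx2, Slc26a7, Meis2 and Lmx1a. These 98 nuclei had 94 of 196 kept Vmo1 UMIs at 650 CPM (526 to 796), with a UMI in 48. The clusters of that type had levels with overlapping intervals, 650 CPM (484 to 854) in 59 nuclei and 652 CPM (472 to 878) in 39. The other named types of nuclei lay between 0 and 21.7 CPM. The 3 nuclei with 5 or more UMIs had 11, 8 and 7 and were all of this type. No cells were named Reissner's membrane, so the level could not be checked in the captures of cells. There, 1 cell with 13 UMIs and another with 6, both in capture 3 and both unnamed, held 19 of 45 UMIs. Spindle/root cells had 7 UMIs in 6 of 23 cells, and none of the 98 erythroid cells had a UMI.

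Otor was near the limit of detection. In cells its 16 kept UMIs lay in 16 different cells, of which 5 were in a cluster of 40 cells led by Dcn, Ccl11, Aard and Meg3, at 21.4 CPM (6.94 to 49.9), and 5 were in basal cells, at 4.84, 5.24 and 3.09 CPM in the 3 captures (4.39 ± 1.14, SD, n = 3). The Dcn/Ccl11 cluster raised 8 of 11 fibrocyte and 5 of 7 basal markers. In nuclei 6 of 20 kept UMIs were in a cluster of 51 nuclei whose leading genes include Tenm2, Meg3 and Dcn, 5 of them in 1 nucleus, and 5 were in 4 of the 32 Slc4a11/Slc4a10 nuclei. The remaining 529 basal nuclei had 0 UMIs of Otor, with an upper bound of 3.97 CPM. Marginal, spindle/root and B cells had 0 UMIs in all captures together.

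**Figure D2:**
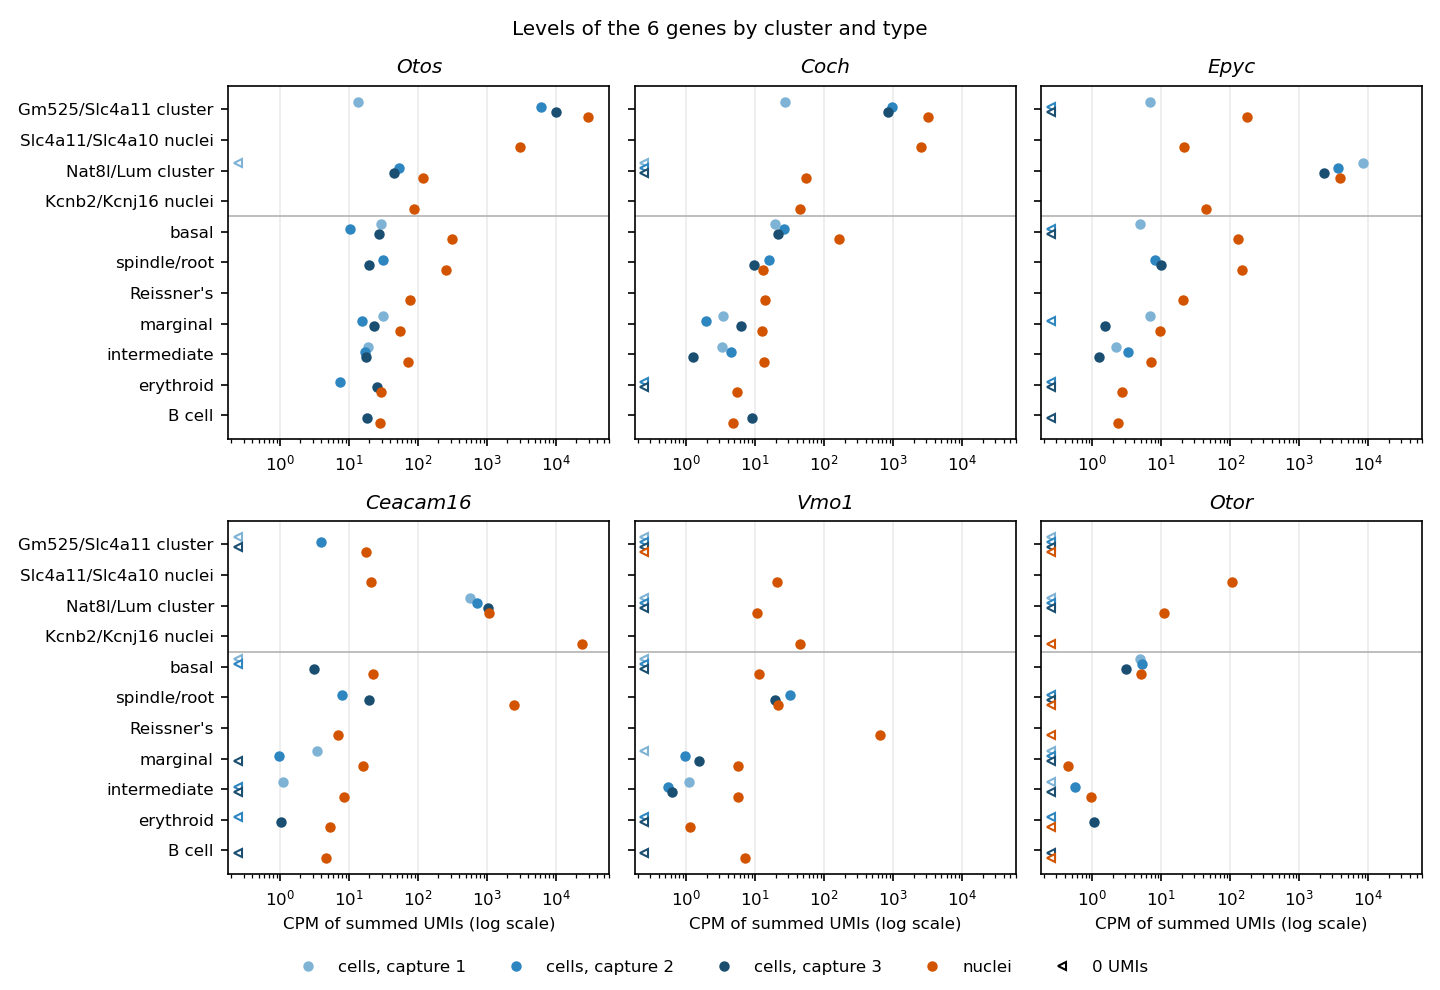
Level of each gene, in CPM of summed UMIs on a logarithmic axis, in 4 clusters called by leading genes (above the line) and in named types (below it). Each circle is 1 capture of cells or the nuclei, open triangles mark 0 UMIs, and no error bars are drawn. Otos and Coch are highest in the Gm525/Slc4a11 rows, Epyc in the Nat8l/Lum row, Ceacam16 in the Kcnb2/Kcnj16 nuclei at 24010 CPM and Vmo1 in Reissner's membrane at 650 CPM.

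UMI sums per capture and named type were then compared, to ask which of the SV's own types had more of each gene. Of the 6 genes, Otos and Coch passed the filter on low counts, and the other 4 were too sparse in the named types. The clusters richest in Otos and in Epyc have no cell type name and are not part of this comparison. Coch had 19.3, 26.2 and 21.7 CPM in basal cells of the 3 captures, 3.35, 4.42 and 1.25 in intermediate cells, 3.46, 1.94 and 6.16 in marginal cells, and 15.9 and 9.83 in the spindle/root cells of captures 2 and 3. The basal values did not overlap those of any other type. These were also the sums through which Coch passed the filter, the other types having 0 to 8 UMIs in each sum, so its selection for the test is not independent of its being high there. Coch was higher in basal cells than in the mean of the other 3 main types, by 2.13 ± 0.53 (SE) on the log2 scale, with an adjusted p of 0.000778 (edgeR quasi-likelihood test, Benjamini-Hochberg over 8072 genes). In that comparison 11.8% of all genes tested were higher and 6.44% lower, and without the filter the difference was 2.13 ± 0.52 (adjusted p = 0.000979). Neither gene was called lower in any of the 5 types. The sums rest on 26 UMIs in 113 basal cells, 6 of them in 1 cell, and without capture 2, at a resolution of 0.4 or with 20 principal components Coch fell below the filter and was not tested. With called doublets kept the difference was 5.70 ± 0.28 (adjusted p = 1.3e-45), since all 10 cells with 5 or more Coch UMIs were then named basal, as against 1 of 10 here.

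Otos gave no such order among the SV's named types. It had 29.0, 10.5 and 27.8 CPM in basal cells (22.4 ± 10.4, SD, n = 3), 18.1 ± 0.912 in intermediate cells and 23.3 ± 7.78 in marginal cells, and 31.9 and 19.7 in the spindle/root cells of captures 2 and 3. These ranges overlapped, and in basal cells the difference was -0.13 ± 0.41 (adjusted p = 0.894). It became 6.28 ± 0.90 (adjusted p = 0.00255) when called doublets were kept, because 9 of the 11 cells with 5 or more Otos UMIs then fell in a cluster that met the basal rule, as against 0 of 11 here. Whether Otos counts as a basal gene in these captures thus depends on the class given to 9 cells.

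Otos was called higher in erythroid cells, in a comparison where 19.1% of all genes were higher and 25.1% lower. The difference was 2.02 ± 0.43 with an adjusted p of 1.88e-05 (edgeR). The erythroid cells, however, had 7.52 CPM in capture 2, from 1 UMI in 13 cells, and 26.1 CPM in capture 3, from 25 UMIs in 85 cells. Neither value lay above the range of the main types. The median difference of all 8072 genes was -0.64 in this fit and -2.56 without TMM scaling, and without that scaling Otos differed by 0.03 ± 0.40 (adjusted p = 0.968). With called doublets kept and TMM scaling on, it differed by 0.30 ± 1.63 (adjusted p = 0.91), so the call was lost under either change. Coch had 0 UMIs in the erythroid cells, with an upper bound of 3.38 CPM.

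**Figure D3:**
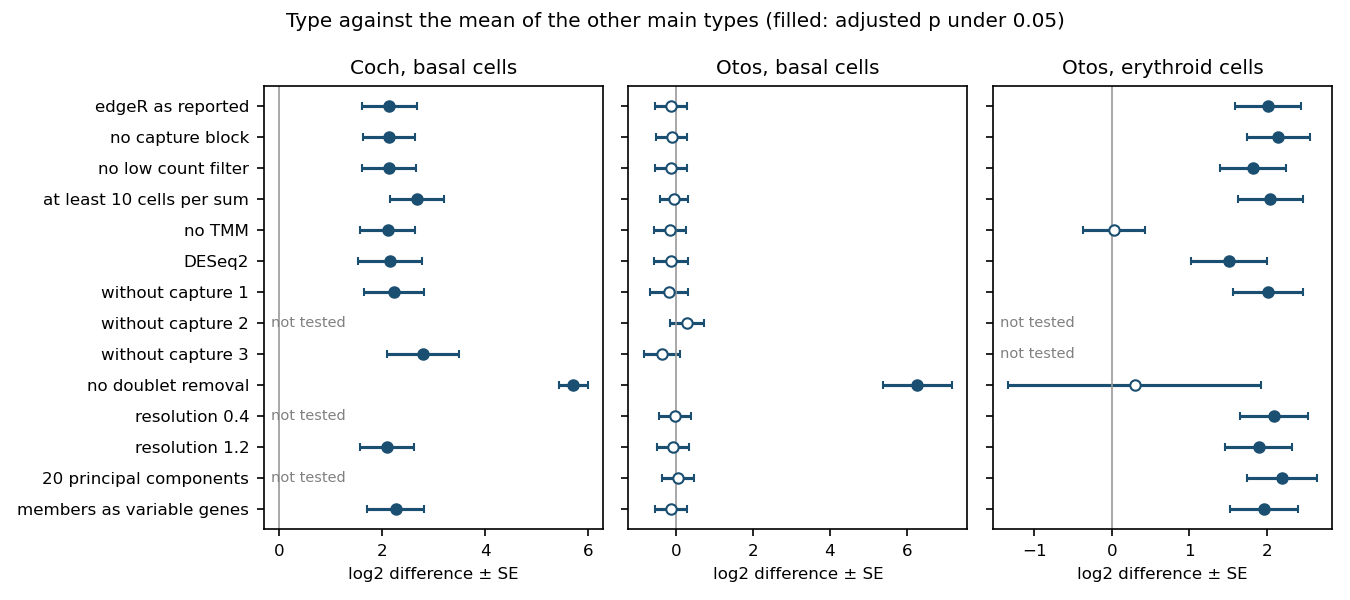
Log2 difference of a type from the mean of the other main types, with its SE as the bar, for Coch in basal cells, Otos in basal cells and Otos in erythroid cells. Each row is 1 way of processing, and filled points have an adjusted p under 0.05. Coch in basal cells lies above 0 wherever it was tested, Otos in basal cells is near 0 except at 6.28 with doublets kept, and Otos in erythroid cells drops to 0.03 without TMM scaling and to 0.30 with doublets kept.

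Otos RNA was also found at a low level in nearly every other type. Outside the producer clusters, meaning those where at least 10% of barcodes have 5 or more UMIs, barcodes with fewer than 5 UMIs had Otos at 21.9, 19.8 and 24.2 CPM in captures 1 to 3 and at 38.5 CPM in nuclei. The level in cells was therefore as high in capture 1, whose richest cell had 6 Otos UMIs, as in the captures with Otos-rich cells. In erythroid barcodes, which should lack the gene, Otos was set against its level in the Gm525/Slc4a11 cluster. It was 0.124% and 0.259% of that level in captures 2 and 3, and 0.0993% in nuclei at 29.3 CPM (23.1 to 36.7). In cells the cluster averages 9 Otos-rich cells at 45350 CPM with 44 cells at 30.8 CPM. In nuclei it averages 19 Otos-rich nuclei at 37750 CPM with 9 at 321 CPM. The shares of cells and nuclei thus have unlike bases and are not compared. The value of capture 2 rests on 1 UMI in 13 cells, at 7.52 CPM (0.190 to 41.9). That of capture 3 rests on 25 UMIs in 85 cells, at 26.1 CPM (16.9 to 38.5). B cell nuclei had 28.4 CPM and neutrophil nuclei 30.4 CPM, next to 71.2 CPM in intermediate, 54.5 in marginal and 76.1 in Reissner's membrane nuclei. In nuclei 1 erythroid barcode held 26 of the 76 Otos UMIs, and without it the level was 19.3 CPM. Likewise 1 intermediate nucleus held 102 of the 223 Otos UMIs of its type, and the level without it was not computed.

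Depth differed between types, so shares of barcodes were also taken after each was thinned to 1000 UMIs, which left out 250 nuclei. In cells Otos was then found in 3.06% of erythroid cells (0.636 to 8.69), 3.10% of marginal, 2.36% of intermediate and 1.77% of basal cells. Before thinning these shares were 21.4%, 14.6%, 10.5% and 14.2%, at median depths of 10230, 8445, 5282 and 9638 UMIs. The thinned shares in the SV's named cells lay within the interval of erythroid cells, which rests on 3 of 98 cells and on none of capture 1, so they could not be told from the erythroid share at this depth. In nuclei the thinned share was 2.54% (1.32 to 4.40) in erythroid, 4.08% (3.35 to 4.91) in marginal, 2.92% (2.18 to 3.84) in intermediate and 7.58% (5.49 to 10.1) in basal nuclei. The thinned interval of basal nuclei, which include the Slc4a11/Slc4a10 cluster, lay above that of erythroid nuclei, and the thinned intervals of marginal and intermediate nuclei overlapped it, so these shares are not read as expression. Unthinned, the shares were 10.2% (7.59 to 13.3), 5.87% (5.01 to 6.83), 4.95% (3.98 to 6.07) and 11.2% (8.74 to 14.1) at median depths of 5277, 1392, 1498 and 1530 UMIs, so that marginal and intermediate nuclei lay below erythroid nuclei and basal nuclei overlapped them.

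The other genes had lower levels and shares in erythroid nuclei. As a share of its level in its leading cluster, however, Coch stood at 0.169% there, above the 0.0993% of Otos, and Epyc and Ceacam16 stood at 0.0695% and 0.0225%. Thinned, Coch was found in 6.65% of basal nuclei (4.70 to 9.09) and in 0.212% of erythroid nuclei (0.00536 to 1.18), and unthinned in 8.91% and 2.54%. Ceacam16 was found in 14.5% of spindle/root nuclei (9.08 to 21.5) and 0.424% of erythroid nuclei (0.0514 to 1.52), and unthinned in 16.8% and 2.75%, at median depths of 1414 and 5277 UMIs. The basal and spindle/root shares include producer clusters. Unthinned, 23 of the 50 basal nuclei with Coch were Slc4a11/Slc4a10 nuclei, and 27 of the other 529 had it. For Ceacam16, 13 of the 24 spindle/root nuclei were Kcnb2/Kcnj16 nuclei, and 11 of the other 130 had it. Levels outside the producer clusters were taken, as for Otos, in barcodes with fewer than 5 UMIs of the gene. There Coch stood at 4.66, 4.90 and 4.46 CPM in the captures of cells and at 14.3 CPM in nuclei. Epyc stood at 2.04 CPM over all captures and 7.76 CPM in nuclei, and Ceacam16 at 1.16 and 10.1 CPM. With nuclei of 5 or more UMIs included, Epyc outside its producer cluster stood at 15.7 CPM.

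The ratio of Otos to Coch was also compared between the types outside the producer clusters. Otos to Coch was 26 UMIs to 0 in erythroid cells and 76 to 14 in erythroid nuclei, 5.43 to 1. Otos made up 100% of these UMIs in erythroid cells (86.8 to 100) and 84.4% in erythroid nuclei (75.3 to 91.2), next to 85.6% (76.6 to 92.1) in intermediate and 85.1% (71.7 to 93.8) in marginal cells, and 84.2% (79.2 to 88.3) and 81.0% (76.1 to 85.3) in the nuclei of those types. Within the cells, and within the nuclei, these intervals overlapped one another, and those of the cells included the 88.7% of the Gm525/Slc4a11 cells. Those of the nuclei did not all include the Gm525/Slc4a11 nuclei, whose 90.2% (88.8 to 91.5) lay above the intervals of intermediate and marginal nuclei. In intermediate nuclei 1 nucleus held 102 of the 223 Otos UMIs and 0 of Coch, and in erythroid nuclei 1 held 26 of 76 Otos UMIs. All barcodes outside the producer clusters with fewer than 5 UMIs of both genes were also pooled. Their share was 82.5% (78.7 to 85.8) in cells and 73.9% (71.0 to 76.6) in nuclei. Both intervals lay below that of the Gm525/Slc4a11 cluster of the same kind. The pool of cells, however, includes basal cells, whose own share was lower, as given below. The limit of 5 UMIs also leaves out barcodes with more of either gene, which the cluster keeps. The part of either in the difference was not tested. Spindle/root nuclei stood at 95.2% (86.5 to 99.0), above the interval of marginal nuclei, but 51 of their 59 Otos UMIs were in 1 nucleus. Basal cells were lower, 44.7% (30.2 to 59.9), with 26 Coch and 21 Otos UMIs. Basal nuclei stood at 65.5% (61.0 to 69.9) with the producer Slc4a11/Slc4a10 cluster included, and without it had 156 Otos to 40 Coch UMIs. Of these Otos UMIs 71 were in 1 nucleus.

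Some nuclei with much of a gene lay outside its producer clusters. For Otos, 60 nuclei in the 2 producer clusters held 60.8% of kept UMIs, 21 nuclei elsewhere with 5 or more held 15.7% and 623 nuclei elsewhere with 1 to 4 held 23.6%. For Coch the corresponding shares were 49.7%, 6.93% and 43.4%. The cut of 5 UMIs was the same for 3003 kept Otos and 606 kept Coch UMIs. A scarcer gene falls under it more often, so these shares are not read as a difference in spread. The highest single values of Otos elsewhere were 102 UMIs in an intermediate nucleus, 71 in a basal and 51 in a spindle/root nucleus, and 1 basal nucleus had 79 UMIs of Epyc. The 21 nuclei also had companions of Otos: Gm525 at 1353 CPM against 4502 in the producers and 14.4 in all other nuclei, Slc4a11 at 443 against 1219 and 4.84, and Apod at 3544 against 9753 and 370. These summed levels lay between those of the other sets, but Gm525 was found in 13 of the 21 nuclei, Slc4a11 in 5 and Apod in 19. Most of the 21 thus had no Slc4a11. The companions were picked by their correlation with Otos over clusters of the same nuclei, so their presence beside Otos is not independent of that choice. The source of these UMIs was not tested.

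**Figure D4:**
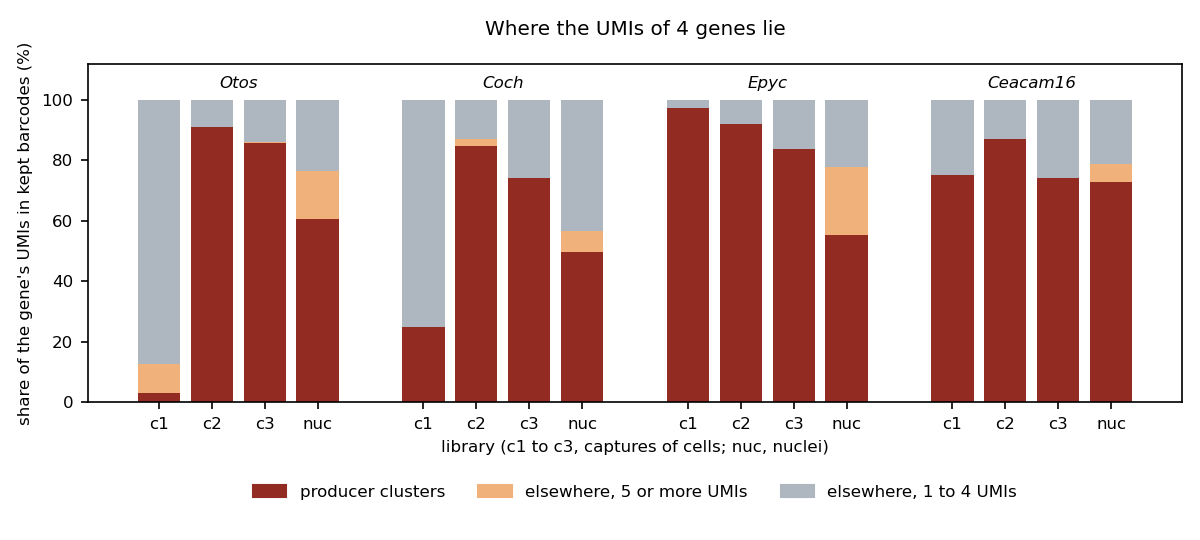
Share of each gene's kept UMIs, in percent, that lies in its producer clusters, in other barcodes with 5 or more UMIs and in other barcodes with 1 to 4, per capture of cells (c1 to c3) and in nuclei. Each stacked bar adds to 100% and is 1 library, with no error bars. Otos in c1 is almost all in barcodes with 1 to 4 UMIs, while in nuclei its producers hold 60.8%.

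Across 66 clusters of at least 30 nuclei, the genes most like each of the 6 were ranked by the Pearson correlation of log2(CPM + 10) among 8450 genes. The clusters come from 1 library and share its free RNA, and the 28 Gm525/Slc4a11 and 13 Kcnb2/Kcnj16 nuclei were too few to enter, so the values are descriptions. Otos was closest to Gm525 (r = 0.69), Coch (0.66), Slc4a11 (0.63), Ppp1r1a and Apod, and Coch was closest to Slc4a11 (0.81), Car3, Slc4a10, Bicc1 and Mdga2. Epyc was closest to Kcnj16 (0.87), Prss36, Ceacam16, Vldlr and Srgap1, and Ceacam16 to Epyc (0.78), Prss36, Kcnj16, Srgap1 and Vldlr, so Kcnj16, Prss36, Vldlr and Srgap1 stood in both lists. Vmo1 was closest to Slc26a7 (0.84), an anion exchanger that also served as a marker of Reissner's membrane, followed by Otx2os1, Crhbp, Sptlc3 and Fap. For Otor, with 20 UMIs, the nearest were Dcn (0.65), Coch, Ralyl, Cntn4 and Lama2.

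Of 33 other genes of the inner ear matrix and relatives of the 6, 11 passed the filter and were tested in the same edgeR fit at an adjusted p of 0.05. In basal cells 6 were higher (Col9a2 by 4.52 on the log2 scale, Col11a2 by 4.17, Vit by 2.94, Sparc by 2.52, Col9a3 by 1.75 and Ogn by 1.27) and Mia, a relative of Otor, was lower (-3.25). Of all genes tested there, 11.8% were higher and 6.44% lower. Col9a2, Col9a3 and Col11a2 encode collagens of cartilage and of the tectorial membrane. Col11a2 is itself a basal marker used for naming, so its call in basal cells is not an independent result. Col9a2 had 29 UMIs in basal cells against 1, 1 and 3 in marginal, intermediate and spindle/root cells. Its passing the filter is thus not independent of its being high there. The same may hold for Mia in spindle/root cells, with 34 UMIs against 17, 4 and 1 in marginal, intermediate and basal cells. In spindle/root cells 4 were higher (Mia, at 125 CPM against 0.907 to 8.64 CPM in the other main types, Ogn by 2.30, Sparc by 2.15 and Col11a2 by 1.45) and Prelp was lower (-1.33), where 6.39% of all genes were higher and 2.86% lower. In intermediate cells Prelp (1.54), Ceacam1 (1.43) and Sparcl1 (0.59) were higher and 5 were lower, with 14.9% of all genes higher and 13.7% lower. In marginal cells Sparcl1 was higher (0.81) and Sparc and Col11a2 were lower, with 12.5% of all genes higher and 6.4% lower. In erythroid cells 5 were lower and 0 higher, with 25.1% of all genes lower and 19.1% higher. The otogelin genes Otog and Otogl had 9 and 3 UMIs in all cells, with 3 of each in the Nat8l/Lum cluster, and Tecta, of the tectorial membrane, had 0.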

How the data were processed

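UMI counts per gene and barcode were deposited by the authors as raw matrices, 1 for each capture, made with Cell Ranger 2.0.0 on mm10 by the submitters' processing notes; whether reads in introns were counted for nuclei is not given in the sources used here. Barcodes with fewer than 200 genes were removed, as were the highest Scrublet scores (scanpy 1.11.5, 0.8% of barcodes for every 1000). Cells and nuclei were clustered separately in Seurat 5.3.0 (2000 variable genes without the 6 members, components with a JackStraw p under 1e-04, 37 and 38 kept, resolution 0.8), and clusters of at least 30 barcodes were clustered again with 10 components. A cluster was named where at least 3 of the fixed markers of 1 class were raised (at least 2 times the other barcodes, in 10% of its barcodes), the second class scored under 0.67 of its mean log2 fold over its markers, and no other class had more markers among its 10 leading genes. This naming rule was revised after clusters had been seen. The rules for barcodes with 5 UMIs and for producer clusters were chosen after the values were seen. The members, markers and gene lists were chosen with earlier results of these data known. Genes named beside the members were the 5 most correlated and a list of 33, while genes of the clusters were named from their leading genes and markers after their values were seen.

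UMIs were summed for each capture and type with at least 5 cells, in at least 2 captures, and fitted in edgeR 4.0.16 (R 4.3.3, TMM, filterByExpr, robust quasi-likelihood test, Benjamini-Hochberg adjustment) with capture as a block. In simulated basal sums, edgeR called 13, 47, 50 and 50 of 50 genes changed 2, 4, 8 and 16 times, and 5 of 7872 unchanged genes. The simulation gave all types the same mean profile, a fixed dispersion and no capture effect, with changed genes drawn at random. Its rates may therefore not hold for the real sums or for genes with few UMIs. The sums of a capture come from 1 suspension, which is where the pairing comes from, although deviations from type means in 23 pairs of sums of the same capture correlated by only -0.0298 to 0.152. DESeq2 1.42.0 was an alternative. Intervals of shares are Clopper-Pearson. Nuclei are 1 library and were not tested.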

Additional observations from a re-analysis of the deposited data

Results flagged for a closer look

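RNA of the members was also present in barcodes that were removed as called doublets and so entered no comparison. In nuclei, 966 removed barcodes held 247 Otos UMIs, in 93 barcodes of which 8 had 5 or more. They also held 67 UMIs of Coch in 41 barcodes (2 with 5 or more), 66 of Ceacam16 in 27 barcodes (5 with 5 or more), 31 of Epyc in 17 barcodes (1 with 5 or more) and 25 of Vmo1 in 18 barcodes (0 with 5 or more). In cells the removed barcodes had little, with 4 Otos UMIs in 15 barcodes of capture 2 and 4 in 20 barcodes of capture 3. These values exceed the limit of 3 UMIs set for flagging, which is about the highest mean that an observed 0 allows. Which of these barcodes hold a single cell was not tested.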

How the results depend on the processing

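Coch in basal cells and Otos in erythroid cells were called higher (2 calls among the members), and 0 members were called lower. Of all 8072 genes, 11.8% were higher in basal and 19.1% in erythroid cells. With the filter on low counts no member but Otos and Coch was tested in any setting. Without TMM scaling, at resolution 0.4 and with 20 principal components 1.0 call was left in each case. Coch was not tested at resolution 0.4 or with 20 components. Without TMM scaling 374 of 8072 genes were higher and 6270 lower in erythroid cells. Without a filter on low counts there were 3 calls, the third being Vmo1 in spindle/root cells (adjusted p = 0.0127, edgeR), where 474 of 15483 genes were higher. Leaving out captures gave 0 to 2 calls. Without capture 2 there were 0, but there Coch was not tested and erythroid cells were not compared, so neither call could be made. Without capture 3 erythroid cells were not compared either, and 1 call was left, Coch in basal cells. The fit without the replicate block gave 2. Without the block Coch in intermediate cells was also called lower (-1.55, adjusted p = 0.0423, edgeR), which the blocked fit did not call (-1.53, adjusted p = 0.052). The other lower calls were of Coch too, in intermediate cells with sums of at least 10 cells (-1.47, adjusted p = 0.0423), in intermediate and erythroid cells without TMM scaling (-1.71 and -5.26, adjusted p = 0.0274 and 0.00382), and in intermediate and marginal cells with doublets kept (-2.50 and -2.70, adjusted p = 0.00106 and 0.00376). Without the block 1093 of 8072 genes were lower in intermediate cells, and with sums of at least 10 cells 1252 of 8020. Without TMM scaling 1575 of 8072 were lower in intermediate cells. With doublets kept 1149 and 518 of 7425 were lower in intermediate and marginal cells. The cause was not tested where no value is given beside it in the report. The difference of Otos in basal cells, -0.13, ranged from -0.37 to 0.27 without 1 capture each, and was 6.28 with doublets kept and 0.04 with 20 components. In the same setting with doublets kept, Otos in erythroid cells was 0.30 (adjusted p = 0.91). Otos in erythroid nuclei, 0.0993% of the level in its leading cluster, became 0.129% at resolution 1.2 and 0.0654% without the erythroid nucleus with the most Otos, an alternative chosen after seeing the data, as were basal and spindle/root nuclei without 1 cluster. The share of erythroid cells with Otos was 0.0% thinned to 500 UMIs and 21.4% unthinned, and that of erythroid nuclei 10.2% unthinned. Across all settings run, 4 of the 6 genes had at least 100 times their level elsewhere in their leading cluster in nuclei, and 3 to 4 in cells when captures were left out. Capture 1 had 0 erythroid cells and gives no background of its own. Otor rests on few UMIs in every library, and with 1 library of nuclei no spread can be given there. No cells were named Reissner's membrane, at median depths of 3857 to 5050 UMIs in the captures of cells and 1497 in nuclei. The reason for the few Vmo1 UMIs in cells was not tested.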
